A study of Mus musculus with 6 samples.

Results

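The genes described here encode the enzymes of heme synthesis and the transferrin receptor, the cell's main gate for iron. They were chosen by symbol from a list of 9: the synthases Alas1 and Alas2, the enzymes Alad, Uros, Urod, Cpox, Ppox and Fech, and the receptor Tfrc. Of the 9, 8 were found among the 21606 genes of the count table, and all 8 were among the 8460 with enough counts to be tested. Alas2 was not analysed here, so the planned comparison of the 2 synthases was not made. RNA came from bone marrow cells of wild-type C57BL/6 mice, an inbred laboratory strain, with bright aldehyde dehydrogenase activity (ALDHbr), a property used to enrich progenitor cells. The groups were female (3 libraries) and male (3 libraries), with no treatment named. Age was not given in the sources used here. Nothing says that replicates were separate animals, and the p-values reflect the spread among these libraries alone, which may be technical.

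Heme is an iron-carrying ring made from glycine and succinyl-CoA by a chain of enzymes that starts and ends in the mitochondrion. The first enzyme, aminolevulinic acid synthase, limits the rate and has a form made in all tissues (Alas1) and an erythroid form (Alas2). Red cell precursors make heme for haemoglobin, and immature granulocytes need it for myeloperoxidase, the peroxidase of their primary granules. Iron arrives bound to transferrin, which the transferrin receptor carries into the cell.

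The libraries held 679724 to 1475224 counts, with a mean of 1320030 ± 141078 (SD, n = 3) in females and 799185 ± 105598 in males. Levels are normalised CPM, counts per 1e+06 counts of a library after TMM scaling, a correction for differences in composition. Xist had 225 to 297 counts in female libraries and at most 2 in male ones, and Ddx3y and Eif2s3y had 0 counts in every female library, so all 6 libraries matched their labelled sex. Mitochondrially encoded genes took 3.59% to 5.64% of counts in females and 4.57% to 7.61% in males, and the part of depth or of this share in the results below was not tested. The log2 CPM of male replicate 1 correlated on average by 0.963 with the female libraries and by 0.953 with the other male ones.

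None of the 8 genes passed the test between the sexes (quasi-likelihood test of edgeR with Benjamini-Hochberg adjustment over 8460 genes, threshold 0.05), which 0.579% of all tested genes did (0.426% higher in males, 0.154% higher in females). Nor did any of the 8 when any single library was left out. DESeq2 and limma-voom also called 0 of the 8. At an unadjusted p under 0.05 each of the 3 tools called 2, which by edgeR were Alas1, lower in males, and Urod, higher in males. Over all tested genes, 11.3% reached that level by edgeR, 6.83% higher in males and 4.5% higher in females. Of the 8460 genes, 959 reached it by edgeR, 499 by DESeq2 and 933 by limma-voom. The median log2 fold change, male minus female, was -0.07 over the 8 genes and -0.0030 over all tested genes. In 4 of the 8 genes the libraries of the sexes did not overlap, against 15.6% of all tested genes. Females lay above males in Alas1 and Tfrc (8.03% of all tested genes), and males above females in Urod and Ppox (7.57%). Scaled by library size only, Ppox overlapped and the count was 3 genes, against 16.6%. In such bulk samples, fewer cells of a type and less RNA per cell cannot be told apart.

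**Figure D1:**
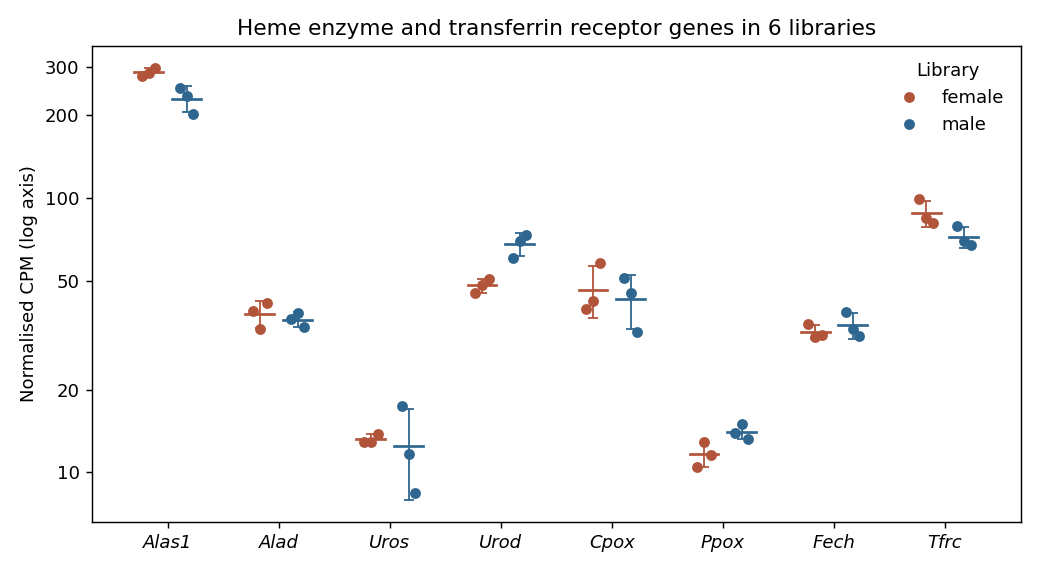
Normalised CPM (log axis) of the 8 genes in each library, with the mean (line) and SD (bar) of the 3 female and 3 male libraries. Alas1 sits above all other genes at 202 to 299 CPM, and the points of the sexes separate for Alas1, Urod, Ppox and Tfrc.

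Alas1, the rate-limiting synthase (ENSMUSG00000032786, chromosome 9, 106233455 to 106248654, minus strand, GRCm38), was the most abundant of the 8 in every library. Its counts were 346, 422 and 388 in females and 216, 142 and 168 in males. In normalised CPM these were 279, 286 and 299 in females and 252, 236 and 202 in males. Every female library lay above every male one, and the closest pair was female replicate 1 and male replicate 1. The female mean was 288 ± 10.1 CPM and the male mean 230.1 ± 25.1 (SD, n = 3). The log2 fold change, male minus female, was -0.32 ± 0.12 (SE; 95% interval -0.58 to -0.07; adjusted p = 0.291 by the edgeR test), which did not pass. In level Alas1 stood at the 92.9th percentile of the tested genes. The annotation places an antisense gene over 465 of its exon bases, but that gene had 2 counts over all libraries.

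The promoter of Alas1 is shown with that of Urod because these 2 genes had the smallest p-values and differed in opposite directions. Each window runs from 250 bases before to 50 after a transcription start in RefSeq (GRCm38.p6), 5′ to 3′ on the gene's strand, and the upstream one of the RefSeq starts is shown for Alas1. Capitals mark matches, on either strand, to GCGC, any base and TGCGC in a row (the site of nuclear respiratory factor 1, NRF1), GGGCGG (a GC box) and CACGTG (an E box).
Alas1, chr9:106247905-106248204, minus strand: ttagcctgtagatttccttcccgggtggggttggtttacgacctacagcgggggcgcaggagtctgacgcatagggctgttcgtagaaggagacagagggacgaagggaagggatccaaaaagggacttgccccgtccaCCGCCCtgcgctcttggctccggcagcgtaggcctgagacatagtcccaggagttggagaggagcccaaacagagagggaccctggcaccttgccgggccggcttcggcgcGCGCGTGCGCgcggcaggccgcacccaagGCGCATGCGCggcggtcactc
Urod, chr4:116994364-116994663, minus strand: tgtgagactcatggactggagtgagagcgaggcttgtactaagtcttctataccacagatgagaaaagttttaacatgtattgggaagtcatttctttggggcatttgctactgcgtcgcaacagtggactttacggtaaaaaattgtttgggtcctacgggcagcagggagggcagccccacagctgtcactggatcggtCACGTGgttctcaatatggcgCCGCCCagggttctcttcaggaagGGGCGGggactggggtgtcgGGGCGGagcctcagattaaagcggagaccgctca
Alas1 held 2 matches to the NRF1 letters, which 4.6% of 32851 RefSeq promoter windows of this length contain, and 1 GC box (35.7% of windows). Both NRF1 matches lay in the last 50 bases of the window, after the start shown and before the downstream RefSeq start. Urod held 3 GC boxes and 1 E box (7.15% of windows), and no NRF1 match. The letters AGATAA, read by GATA factors and present in 11.2% of windows, occurred in neither. Matches overlapped in neither window, and they describe letters, not bound sites. NRF1 is a known activator of Alas1 and other genes for mitochondrial proteins, and its own gene, Nrf1, had 48.9 ± 2.52 CPM in females and 46.6 ± 8.76 in males (log2 fold change -0.04 ± 0.18, not passed).

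Alad, which joins aminolevulinic acid molecules into the first pyrrole ring, had 38.7, 33.2 and 41.6 CPM in females and 36.1, 38.2 and 33.7 in males. The sexes overlapped, with a log2 fold change of -0.07 ± 0.20 (95% interval -0.49 to 0.35). Uros, which closes the ring, was by CPM among the 2 least abundant genes in every library, with 16, 19 and 18 counts in females and 15, 7 and 7 in males. At 12.9, 12.9 and 13.9 CPM the female libraries were close together, while the male ones spread over 17.5, 11.6 and 8.43 CPM and lay on both sides of them. Its log2 fold change of -0.06 had a 95% interval of -0.75 to 0.63, so differences in either direction within those bounds remained compatible with these libraries.

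Urod, which trims the side chains of uroporphyrinogen in the cytosol (ENSMUSG00000028684, chromosome 4, 116989965 to 116994413, minus strand), had 56, 71 and 66 counts in females and 52, 42 and 61 in males. In normalised CPM these were 45.1, 48.1 and 50.8 in females and 60.6, 69.8 and 73.5 in males. All male libraries lay above all female ones, with male replicate 1 nearest to the females. The means were 47.995 ± 2.85 and 67.97 ± 6.67 CPM (SD, n = 3). Its log2 fold change of 0.50 ± 0.16 (95% interval 0.16 to 0.84; adjusted p = 0.225 by the edgeR test) was the largest in size among the 8 genes and did not pass.

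Cpox, which oxidises coproporphyrinogen in the mitochondrion, had 39.5, 41.995 and 57.7 CPM in females and 51.2, 44.9 and 32.5 in males. Female replicate 3 was the highest library and male replicate 3 the lowest, and among the other 4 both male libraries lay above both female ones (log2 fold change -0.11 ± 0.21). Ppox, the next oxidase (chromosome 1, 171275990 to 171281186, minus strand), had 13, 19 and 15 counts in females and 12, 9 and 11 in males. Its normalised values were 10.5, 12.9 and 11.5 CPM in females and 13.98, 14.97 and 13.3 in males, so the males lay just above the females. The log2 fold change was 0.26 ± 0.32 with a 95% interval of -0.40 to 0.91. Ppox shares 791 exon bases with B4galt3, a gene on the opposite strand with 32 counts over all libraries, and use of strand in counting was not given in the sources used here. Fech, the ferrochelatase that inserts iron into the finished ring (chromosome 18), had 34.6, 31.2 and 31.6 CPM in females and 38.4, 33.3 and 31.3 in males. The sexes overlapped, and the log2 fold change was 0.09 ± 0.21 (95% interval -0.34 to 0.52).

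**Figure D2:**
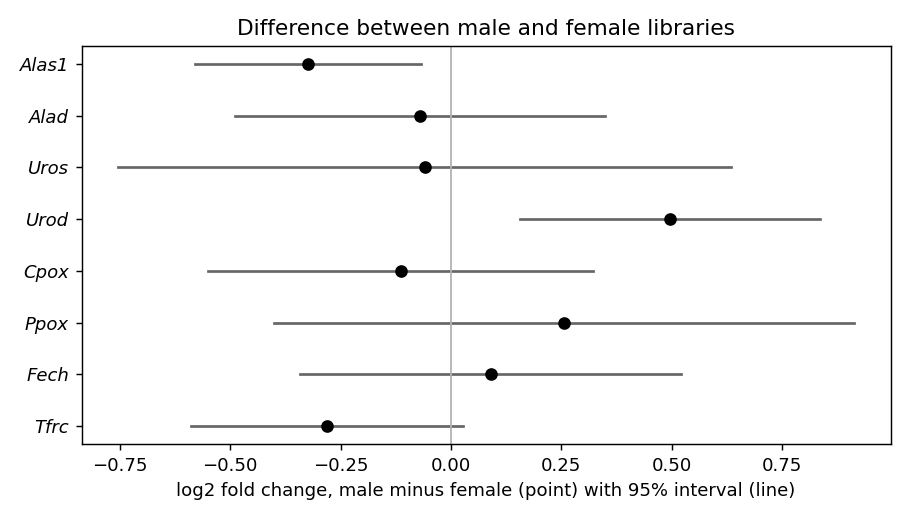
Log2 fold change, male minus female, of each of the 8 genes (point) with its 95% interval (line) from edgeR's fit. The intervals of Alas1 (-0.58 to -0.07) and Urod (0.16 to 0.84) lie on opposite sides of 0, and those of the other 6 genes include 0.

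The balance between the first step and the later ones was described within each library, where scaling between libraries plays no part. Alas1 took 60.6%, 61.3% and 59.1% of the counts of the 7 enzymes in females, and 53.6%, 52.6% and 51.2% in males. All female shares lay above all male ones. The exact 95% binomial intervals ran from 55.2% to 65.0% over the female libraries and from 45.7% to 58.7% over the male ones, and cover counting error only. These shares were computed after the values of Alas1 and Urod had been seen and carry no test. For each Urod count there were 5.88 to 6.18 Alas1 counts in females and 2.75 to 4.15 in males. For each Tfrc count there were 2.81 to 3.70 Alas1 counts in females and 3 to 3.38 in males, ranges that overlapped.

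**Figure D3:**
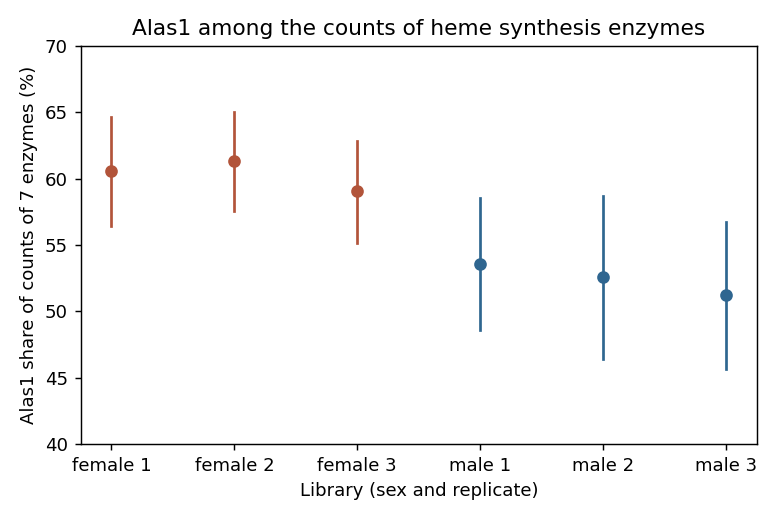
Share of Alas1 in the counts of the 7 measured heme synthesis enzymes in each library (point, %; axis from 40 to 70) with its exact 95% binomial interval (line). The 3 female libraries sit between 59.1% and 61.3% and the 3 male ones between 51.2% and 53.6%.

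Levels of different genes were compared mainly by CPM, since counts of 3′-end reads do not scale with transcript length, and CPM too is not exact between genes. Values per kilobase of annotated exons are given beside it only for reference. They lower genes with long annotated exons, such as Fech (13838 bases), and raise those with short ones, such as Alad (1871 bases). By CPM, Alas1 came first in all 6 libraries, and Tfrc second except in male replicate 3, where Urod (73.5 CPM) exceeded it (67.5). Cpox, Alad and Fech had overlapping ranges of 32.5 to 57.7, 33.2 to 41.6 and 31.2 to 38.4 CPM, and Uros and Ppox had the lowest levels in every library. Per kilobase of annotated exons, Alas1 again came first in every library, at 32.8 to 48.4 CPM per kilobase. Urod and Alad followed with overlapping ranges of 17.4 to 28.4 and 17.7 to 22.2, then Tfrc (10.9 to 16.02) and Cpox (4.88 to 8.67). Uros, Ppox and Fech lay lowest, at 2.36 to 4.89, 2.32 to 3.31 and 2.25 to 2.78.

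Tfrc, the transferrin receptor (ENSMUSG00000022797, chromosome 16, 32608920 to 32632794, plus strand), had 123, 125 and 105 counts in females and 68, 42 and 56 in males. In normalised CPM these were 99.1, 84.7 and 80.8 in females and 79.2, 69.8 and 67.5 in males. All females lay above all males, but only narrowly, since female replicate 3 and male replicate 1 were 80.8 and 79.2 CPM. The means were 88.2 ± 9.61 and 72.2 ± 6.20 CPM (SD, n = 3). The log2 fold change was -0.28 ± 0.15 (95% interval -0.59 to 0.03; adjusted p = 0.495 by the edgeR test), which did not pass.

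Tfrc RNA is known to be stabilised when iron is scarce, through iron-responsive elements in its 3′ UTR that bind iron regulatory proteins. The same kind of hairpin in the 5′ UTR of the ferritin genes Fth1 and Ftl1, which encode the subunits of the iron store, blocks their translation instead. The sites are shown because they tie uptake and storage to the same sensors. A match was a C, any 5 bases, the loop CAGTGN and any 5 bases on the transcript strand, where the 5 bases before the loop had to pair with the 5 after it (G with T allowed). Each sequence is 29 bases, 5′ to 3′, written with T, from GENCODE M21 transcripts (GRCm38), with the loop in capitals.
Tfrc site 1, chr16:32631219-32631247, plus strand: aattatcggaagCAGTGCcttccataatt
Tfrc site 2, chr16:32631598-32631626, plus strand: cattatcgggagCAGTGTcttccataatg
Tfrc site 3, chr16:32631663-32631691, plus strand: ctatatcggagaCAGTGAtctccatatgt
Tfrc site 4, chr16:32631710-32631738, plus strand: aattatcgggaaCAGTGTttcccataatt
Fth1 site 1, chr19:9982732-9982760, plus strand: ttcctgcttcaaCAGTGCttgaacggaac
Ftl1 site 1, chr7:45459779-45459807, minus strand: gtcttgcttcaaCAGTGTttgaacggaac
Tfrc held 4 matches in a 3′ UTR of 2458 bases. A match occurred in 0.560% of 20878 genes with a 3′ UTR and in 0.101% of 20714 with a 5′ UTR, taking the longest complete transcript of a gene, and UTRs differ in length. The UTRs of Alas1 held none.

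**Figure D4:**
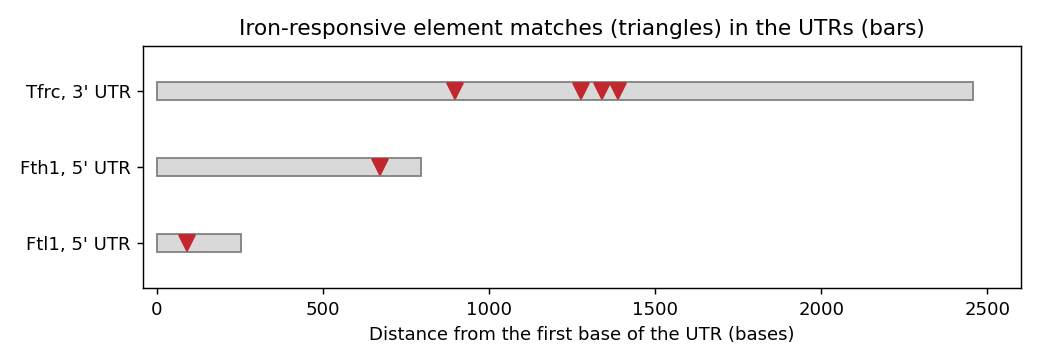
Positions of iron-responsive element matches (triangles) in the 3′ UTR of Tfrc and the 5′ UTRs of Fth1 and Ftl1 (bars, in bases from the first base of the UTR). Tfrc carries 4 matches, of which 3 lie within the stretch that starts 1268 bases into its UTR, while each ferritin gene carries 1.

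Fth1, the ferritin heavy chain, had 1433, 1398 and 1385 CPM in females and 1650.4, 1878 and 1633 in males. Its males lay above its females, as in 7.57% of all tested genes (log2 fold change 0.29 ± 0.12, adjusted p = 0.351 by the edgeR test, not passed). Tfrc had its females above, as in 8.03%. There were 14.5 to 17.1 Fth1 counts for each Tfrc count in females and 20.8 to 26.9 in males, a ratio computed after both values had been seen. Fth1 has processed copies in the genome that could share its reads. Ftl1, the ferritin light chain, had 102 ± 7.68 CPM in females and 94.6 ± 5.98 in males, with overlapping libraries. The iron regulatory protein genes Aco1 and Ireb2, named after their values were seen, had differences of -0.02 ± 0.26 and 0.08 ± 0.20 on the log2 scale, and neither passed. Of the 7 tested genes of iron storage, export and sensing, none passed by edgeR, DESeq2 or limma-voom, 1 reached an unadjusted p under 0.05 by each tool, and the median log2 fold change was -0.02.

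Few of the other heme and iron genes were called. Of the 15 tested genes that supply or regulate heme synthesis, none passed by any of the 3 tools, 1 reached an unadjusted p under 0.05 by each, and the median log2 fold change was -0.04. Suclg1, a subunit of a mitochondrial succinyl-CoA enzyme, and Shmt2, the mitochondrial serine and glycine enzyme, were the most abundant, with log2 fold changes of 0.02 ± 0.14 and -0.11 ± 0.12. Bach1, a repressor that is released by heme, was the gene at the unadjusted level and is named after its value was seen. It had 26.6, 29.8 and 29.2 CPM in females and 20.96, 4.99 and 14.5 in males, a log2 fold change of -0.99 ± 0.30 (adjusted p = 0.192 by the edgeR test). Its counts were 33, 44 and 38 in females and 18, 3 and 12 in males. Without male replicate 1, Bach1 passed the test. In that setting 78 of 8989 tested genes passed as higher in females and 337 as higher in males. With all libraries these were 13 and 36 of 8460.

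Of the 13 tested genes of iron uptake and delivery, none passed by any of the 3 tools, and edgeR, DESeq2 and limma-voom called 2, 0 and 1 at an unadjusted p under 0.05. The iron chaperone gene Pcbp1 had 625 ± 14.1 CPM in females and 651 ± 1.47 in males (log2 fold change 0.06 ± 0.12). Snx3, which encodes a sorting nexin that helps to recycle the transferrin receptor, had 298, 277 and 279 CPM in females and 242, 243 and 231 in males. Its females lay above its males as in Tfrc and in 8.03% of all tested genes (log2 fold change -0.25 ± 0.12, adjusted p = 0.409 by the edgeR test, not passed). Of the 14 tested genes of iron-sulphur cluster assembly, the other main use of mitochondrial iron, none passed and none reached an unadjusted p under 0.05 by any of the 3 tools. Hspa9 and Glrx5, a chaperone and a carrier of that assembly, had differences of -0.04 ± 0.13 and -0.06 ± 0.14 on the log2 scale. The 6 tested genes of heme breakdown and transport likewise had no call at either level by any of the 3 tools, with a median of 0.23. Among them Slc48a1, a heme transporter, had 94.2 ± 2.12 and 85.5 ± 2.15 CPM, and Flvcr1, a heme exporter, 28.1 ± 3.30 and 34.6 ± 4.63.

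Among the 18 tested genes of heme-containing proteins, their partner proteins and their assembly, 1 rose in males, none fell and 17 did not pass. The gene that rose was mt-Co1, a subunit of cytochrome c oxidase encoded in mitochondrial DNA, with a log2 fold change of 0.67 ± 0.15 (adjusted p = 0.0396 by the edgeR test). Its call was kept by DESeq2 but lost by limma-voom (adjusted p = 0.0520) and without any one library other than male replicate 1, with an adjusted p of up to 0.227. Mpo, the myeloperoxidase gene, had 7423, 7625 and 7870.3 CPM in females and 6656, 6216 and 6124 in males. Its females lay above its males as in Alas1 and in 8.03% of all tested genes, and it did not pass (log2 fold change -0.27 ± 0.13, adjusted p = 0.442 by the edgeR test). Prtn3, a protease of the same granules, had 2966 ± 66.8 and 2853 ± 272 CPM. Of the 11 tested markers of immature myeloid cells, none passed by any of the 3 tools, 1 reached an unadjusted p under 0.05 by edgeR and 2 by DESeq2 and by limma-voom, and the median log2 fold change was -0.06. Of these 11, 4 had a log2 fold change above 0 and 7 below. Summed over the 12 markers listed, the level was 15312 to 16021 CPM in females and 13719 to 14704 in males, and its part in the values of Alas1 was not tested. Mpo, with means of 7639 and 6332 CPM, was the largest part of that sum.

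**Figure D5:**
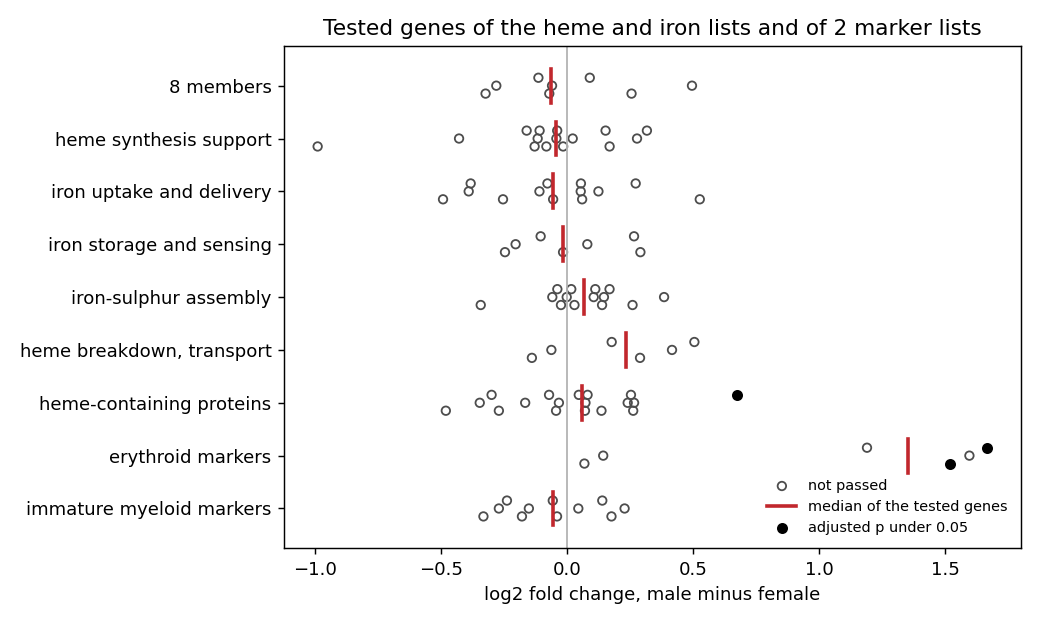
Log2 fold change, male minus female, of every tested gene (circle) of the heme and iron lists and of 2 marker lists, with the median of each list (red line); filled circles passed the test. The 8 genes described here lie between -0.32 and 0.50, and the erythroid markers between 0.07 and 1.67, with a median of 1.35. Of the erythroid markers, Ermap and Aqp1 passed the filter through the male libraries.

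Of 22 listed erythroid markers, 6 were tested, 2 rose in males, none fell and 4 did not pass, with log2 fold changes from 0.07 to 1.67 and a median of 1.35. The 4 were Ermap (1.60), Aqp1 (1.19), Nfe2 (0.14) and Tal1 (0.07). Ermap had 4, 6 and 10 counts in females and 11, 10 and 14 in males, and Aqp1 21, 12 and 12 against 29, 16 and 14. Both passed the filter through the male libraries, since the female ones alone fell short, and that choice favours a high median. The 2 that rose, Car1 and Car2, encode carbonic anhydrases of red cells and their precursors, with log2 fold changes of 1.67 ± 0.15 (adjusted p = 2.89e-07 by the edgeR test) and 1.52 ± 0.19 (adjusted p = 3.90e-05). Car1 rose from 41.1, 45.4 and 46.9 CPM to 154, 158 and 116, and Car2 from 35.4, 29.8 and 46.9 to 104, 140 and 83.1. Summed over the 20 list genes with a row, the level was 233 to 269 CPM in females and 392 to 597 in males, and its part in the values of the heme genes was not tested. Most of that gap lay in Car1 and Car2, with means of 44.5 and 37.4 CPM in females and 142 and 109 in males. Among genes of later red cell maturation, Slc4a1 had 1 count over all libraries, and the globins Hba-a1, Hba-a2, Hbb-bs and Hbb-bt 17, 7, 65 and 12. By sex, the globins had 12, 3, 32 and 4 counts in females and 5, 4, 33 and 8 in males, whose libraries held fewer counts.

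Among markers of other cell types, Pf4, the only tested gene of 8 megakaryocyte markers, rose (log2 fold change 1.92 ± 0.31), a call lost without male replicate 3 (adjusted p = 0.0576 by the edgeR test). Of 6 tested B-lineage and plasma cell markers, Ms4a1 fell by 2.36 on the log2 scale, a call lost by DESeq2 (adjusted p = 0.132) and limma-voom (adjusted p = 0.0520) and without male replicate 3 (adjusted p = 0.139 by the edgeR test). With 21, 21 and 14 counts in females and 2 in each male library, Ms4a1 passed the filter through the females alone. It had too few counts to be tested without female replicate 1 or female replicate 2, and the other 5 markers did not pass. Of 9 markers of iron-recycling macrophages, 2 were tested, Cd163 (log2 fold change 0.42 ± 0.32) and Adgre1 (0.71 ± 0.41), and neither passed by any of the 3 tools or at an unadjusted p under 0.05. The 10 markers of cycling cells, a state in which Tfrc is known to be high, had no call by edgeR, DESeq2 or limma-voom, 2, 1 and 2 at an unadjusted p under 0.05, and a median of 0.10. Top2a had a log2 fold change of -0.03 ± 0.13 and Mcm6 of -0.0013 ± 0.12.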

How the data were processed

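RNA counts of 6 libraries (3 female, 3 male) were used, grouped by their titles. Per the labels' protocols, libraries were made by BRB-seq, in which barcoded oligo-dT primers tag each sample before pooling, so that reads come from 3′ ends. The authors deposited raw counts per gene with no normalisation. Per the submitters' processing notes, the tools included HISAT2 2.2.1, featureCounts 2.0.1, Trim Galore 0.6.7, UMI-tools and DESeq2, and the builds GRCm38 and GRCh38. Collapsing of molecular identifiers and use of strand were not given in the sources used here, and PCR copies may be counted.

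Genes were filtered with edgeR 4.0.16 in R 4.3.3 (filterByExpr, minimum count 10, minimum total 15), which kept 8460 of 21606 genes. TMM scaling was applied, and males were compared with females by the quasi-likelihood F test with Benjamini-Hochberg adjustment at 0.05. Standard errors were derived from the fold change and F. Alternatives were 3 other scalings, 2 other filters, DESeq2 1.42.0, limma-voom (limma 3.58.1), a replicate block and leaving out each library. Positions are from GENCODE M21, which held all 21606 identifiers. No library was a copy of another of its sex (chi-square per degree of freedom 1.98 to 4.09).

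The genes, lists and tests were chosen with earlier results of these data known. The genes named are all those of the studied list, plus, per other list, up to 4 called genes in order of p, or the 2 most abundant if none was called, and Xist, Ddx3y and Eif2s3y. Nrf1, Bach1, Aco1, Ireb2, Ermap, Aqp1, Nfe2, Tal1, Slc4a1 and the globin genes were added after their values were seen. On simulated data of the male minus female comparison (8305 genes, 200 changed), the share recovered was 13.8% at a log2 change of 0.5, 80.6% at 1 and 100% at 2.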

Additional observations from a re-analysis of the deposited data

How the results depend on the processing

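Of 112 fold changes of the 8 genes under the alternatives, 107 kept their direction and their side of the threshold, and 5 changed sign, all on leaving out a library. Alas1 ranged from -0.41 to -0.24 (adjusted p from 0.0723 to 0.687), Urod from 0.40 to 0.58 (0.0654 to 0.680) and Tfrc from -0.37 to -0.19. The median over the 8 genes was positive without female replicate 3 (0.04) or male replicate 3 (0.11). At an unadjusted p under 0.05, 3 of the 8 stood without male replicate 1 and 1 without male replicate 3. The share of all tested genes at that level was not computed for these settings. Calls at the adjusted threshold also moved over all tested genes. They were 337 higher in males and 78 in females without male replicate 1, and 19 and 4 without male replicate 3. Leaving out single libraries gave ranges of -0.16 to 0.0034 for Alad, -0.42 to 0.19 for Uros, -0.29 to 0.068 for Cpox and -0.0084 to 0.16 for Fech. It also turned Suclg1 (-0.10 to 0.16), Hspa9 (-0.12 to 0.058), Glrx5 (-0.16 to 0.040), Top2a (-0.15 to 0.087) and Mcm6 (-0.044 to 0.060). Scaled by library size only, Suclg1 was -0.077 and Pcbp1 -0.035, and with no filter Suclg1 was -0.0098. Mcm6 was 0.0022 with RLE, 0.0058 with the stricter filter and 0.0028 by DESeq2.

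Males had 36 higher genes and females 13, a share of 73.5% in males, against 55.8% with library size only, where 23 were higher in females. With no filter the counts were 81 and 35, and 7 genes were higher in females by DESeq2 and 8 by limma-voom. Leaving out single libraries gave 19 to 337 genes higher in males (337 without male replicate 1, 19 without male replicate 3) and 4 to 78 in females (78 without male replicate 1, 4 without male replicate 3, 8 without female replicate 2). With the replicate number as a block the counts were 56 and 22. Deviations of same-numbered libraries correlated by 0.03 to 0.04, and those of differently numbered libraries across the sexes by at most 0.0013. Each library thus correlated best with its own number, though weakly. The main fit did not take the numbers as pairs, and whether same-numbered libraries share a batch was not tested. The causes were not tested. The planned comparisons of Alas1 with Alas2 were not run, since Alas2 was not analysed here. Counts of 7 to 19 per library limit what Uros and Ppox can show.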
